A study of Mus musculus with 8 samples.

Results

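The genes described are those of major histocompatibility complex (MHC) class I antigen display that were chosen by symbol: the heavy chains H2-K1, H2-D1, H2-Q4, H2-Q6, H2-Q7, H2-T22 and H2-T23, the light chain B2m, and the peptide transporter subunits Tap1 and Tap2. All 10 symbols were found, through the GENCODE M21 annotation, among the 54018 gene identifiers of the expression table. Polyadenylated RNA came from mononuclear cells of the spleens of leukaemic C57BL/6 mice. The knockdown group (n = 4, labelled replicates 1, 2, 5 and 4) had the genotype Kdm1aKD;Eµ-TCL1A, in which doxycycline induces a knockdown of Kdm1a, the histone demethylase also called LSD1. The control group (n = 4, labelled replicates 1 to 4) had the genotype Eµ-TCL1A. Mice of both groups therefore carry TCL1A, a human oncogene driven in B cells by an immunoglobulin enhancer, which gives a disease resembling chronic lymphocytic leukaemia. The labels give neither the cells in which the knockdown acts, nor the dose and duration of doxycycline, nor whether control mice received it, nor age or sex. They do not say whether each library came from a separate mouse, so p-values measure only the spread between these libraries.

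Class I molecules show peptides from inside the cell to CD8 T cells. A heavy chain pairs with beta-2-microglobulin, the product of B2m, and takes up a peptide that the Tap1 and Tap2 transporter has carried into the endoplasmic reticulum. Classical heavy chains, H2-K1 and H2-D1 in this strain, are found on nearly all nucleated cells, and natural killer cells respond to their loss. The nonclassical chains of the Q and T regions have narrower roles. Interferons raise most of these genes through an interferon-stimulated response element (ISRE) in the promoter, which lies near an NF-kappaB site called enhancer A and the SXY module that the activator NLRC5 uses.

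The promoter segments below are shown because H2-K1, H2-D1, H2-Q4, H2-Q6 and H2-Q7 share them nearly letter for letter. H2-T22, H2-T23 and B2m have another form of the element. The segments are RefSeq sequences of GRCm38.p6, written 5′ to 3′ on the strand of the gene. Capitals mark enhancer A (GGGG directly followed by ATTCCC) and the ISRE (a shorter form, GAA, any 2 bases and GAAA, and a longer form, GAAA, any 2 bases and GAAA, on either strand). Segments that lie in an annotated GENCODE M21 exon are cut to 30 bases.
H2-K1, chr17:34000409-34000473, minus strand: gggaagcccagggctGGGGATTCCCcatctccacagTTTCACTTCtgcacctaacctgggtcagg
H2-D1, chr17:35262923-35262952, plus strand: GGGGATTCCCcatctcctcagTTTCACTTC
H2-Q6, chr17:35424662-35424726, plus strand: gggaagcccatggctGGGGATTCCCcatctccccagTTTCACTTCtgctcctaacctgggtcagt
H2-Q7, chr17:35439006-35439070, plus strand: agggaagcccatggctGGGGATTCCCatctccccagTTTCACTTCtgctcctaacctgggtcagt
H2-Q4, chr17:35379454-35379483, plus strand: atctccccagTTTCACTTCtgctcctaact
H2-T22, chr17:36042914-36042943, minus strand: attggcttagTTTCACTTTCgaatccccaa
H2-T23, chr17:36032806-36032835, minus strand: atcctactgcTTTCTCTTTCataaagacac
B2m, chr2:122147512-122147576, plus strand: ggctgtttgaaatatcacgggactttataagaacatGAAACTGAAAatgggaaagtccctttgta
The H2-D1 and H2-T23 segments lie in exons of longer transcripts of the same genes.

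Promoters of 300 bases (250 before the start and 50 from the start on) were at hand for 9 of the 10 genes, all but Tap2. Enhancer A was found in 4 of them (H2-K1, H2-D1, H2-Q6 and H2-Q7) and in 0.107% of 32851 mouse promoters. Only the exact letters were counted, and H2-Q4 has GGGG directly followed by ATTTCCC upstream of its ISRE. The shorter ISRE form was found in 5 (H2-K1, H2-D1, H2-Q4, H2-Q6 and H2-Q7), against 7.52% of all promoters. The longer form was found in 3 (B2m, H2-T22 and H2-T23), against 3.44%, and was added to the search after the B2m promoter had been seen. The forms did not overlap each other in these genes, and 8 of 9 held one or the other, against 10.4% of all promoters. The letters TGACG, the core of the cyclic AMP response element within the SXY module, were found on either strand in 7 of 9, against 20.8%. CCAAT on either strand was found in all 9, against 37.4%. A match is a description of letters and shows no binding.

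**Figure D1:**
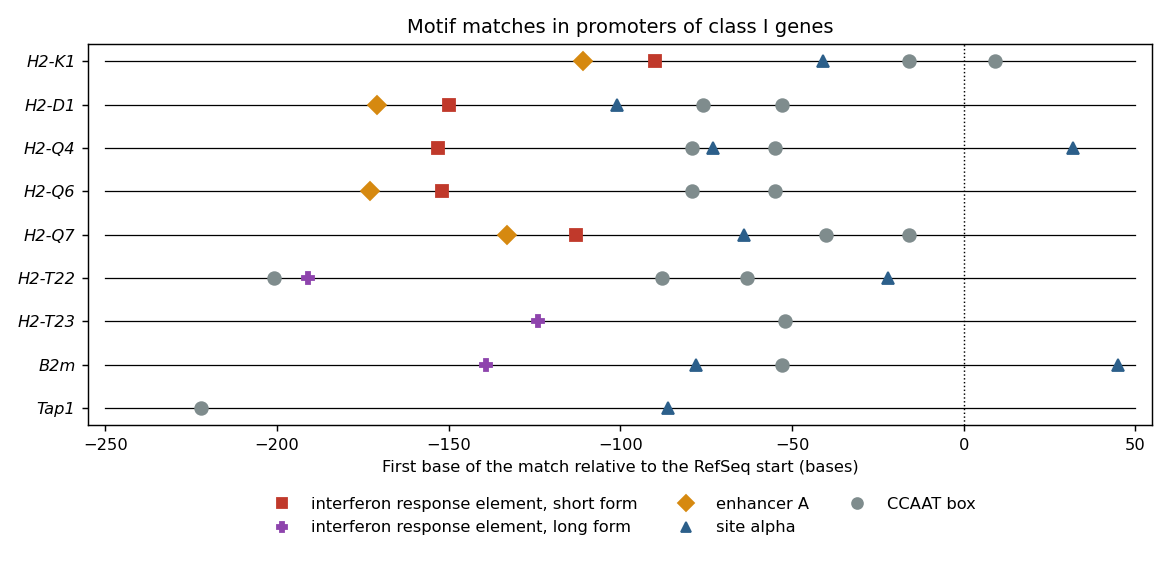
Motif matches in the 9 promoters, with the position of the first matched base relative to the RefSeq start in bases on the horizontal axis and 1 gene per line. Site alpha stands for TGACG at any position, and H2-K1 is drawn from the first of its RefSeq starts. In H2-K1, H2-D1, H2-Q6 and H2-Q7 an enhancer A match lies just upstream of an ISRE match. H2-Q4 has the ISRE match without an exact enhancer A match, and Tap1 has neither.

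Tap1 held TGACG and CCAAT but neither ISRE form. Its RefSeq start lies 226 bases from that of Psmb9, an immunoproteasome subunit gene transcribed in the other direction, so the genes share this stretch. The 30 bases around its TGACG, in capitals, are given because it is the nearer of these matches to the Tap1 start.
Tap1, chr17:34187458-34187487, plus strand: cccagagacaggTGACGacagagggtcctg

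The authors deposited FPKM values, which divide fragments by transcript length and by library size, so levels of genes can be compared per length. Control replicate 4 had the lowest sum, 572660, and the remaining libraries had 671732 to 762888. Steps between low values gave an estimated 40300000 to 47300000 fragments per library, at which 1 fragment on a transcript of 1 kb is worth 0.0211 to 0.0248 FPKM. No member fell below 38.4 FPKM, so counting error is small beside the spread between libraries. Every knockdown library expressed Xist (94.9 to 175 FPKM), as did control replicate 1 (109.9 FPKM), whereas control replicates 2, 3 and 4 had at most 0.128 FPKM, so sex nearly follows the groups and cannot be told apart from them outside that control. All 10 B cell markers were at or above 1 FPKM in every library. Their sum, carried by the abundant ones, was 1210.5 to 3168 FPKM in knockdown and 3264 to 3924 FPKM in control, but their mean log2 level overlapped, at 5.81 to 7.40 in knockdown and 6.86 to 7.14 in control. Monocyte and macrophage markers summed to 510.4 to 973 FPKM in knockdown and 149 to 378 FPKM in control, while their mean log2 level overlapped (3.70 to 4.84 in knockdown and 2.81 to 3.83 in control). Megakaryocyte and platelet markers lay apart on both measures, with sums of 20.5 to 61.6 FPKM in knockdown and 6.63 to 14.5 FPKM in control. These levels are low, and only 2 of the 7 markers were at or above 1 FPKM in every library. In bulk RNA, fewer cells of a type and less RNA per cell cannot be told apart.

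Kdm1a, the gene targeted, had 20.2, 21.04, 15.6 and 15.5 FPKM in knockdown replicates 1, 2, 5 and 4, against 24.2, 21.2, 24.1 and 31.1 FPKM in control replicates 1 to 4. The groups did not overlap, although knockdown replicate 2 and control replicate 2 were close to each other. The mean was 18.1 ± 2.96 FPKM in knockdown and 25.1 ± 4.19 FPKM in control (SD, n = 4 each). The log2 difference was −0.45 (95% interval −0.86 to −0.05), with p = 0.0286 in a two-sided exact permutation test, the smallest that 70 assignments allow. Over all genes its adjusted p was 0.223 (limma), so it did not pass that test.

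None of the 10 class I genes passed the test for a difference between knockdown and control. Their log2 differences lay between −0.08 (H2-D1) and 0.45 (Tap1). The test was limma on log2(FPKM + 1), with p-values adjusted after Benjamini and Hochberg across 12890 genes and called under 0.05. By it 0 of the 10 were called, against 1.74% of all genes tested, and 0 had an unadjusted p under 0.05, against 19.2%. All 10 passed the filter on low values, with at least 1 FPKM in every library. In 9 of 10 the difference was above 0, with a median of 0.14, and over all genes 63.7% were above 0 with a median of 0.13. Median-of-ratios scaling moved the median of all genes to 0.00, and 5 of the 10 then lay above 0. For 0 of 10 did the groups lie apart with knockdown higher, against 11.2% of all genes. The intervals were wide, so these values do not show that the groups are alike.

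**Figure D2:**
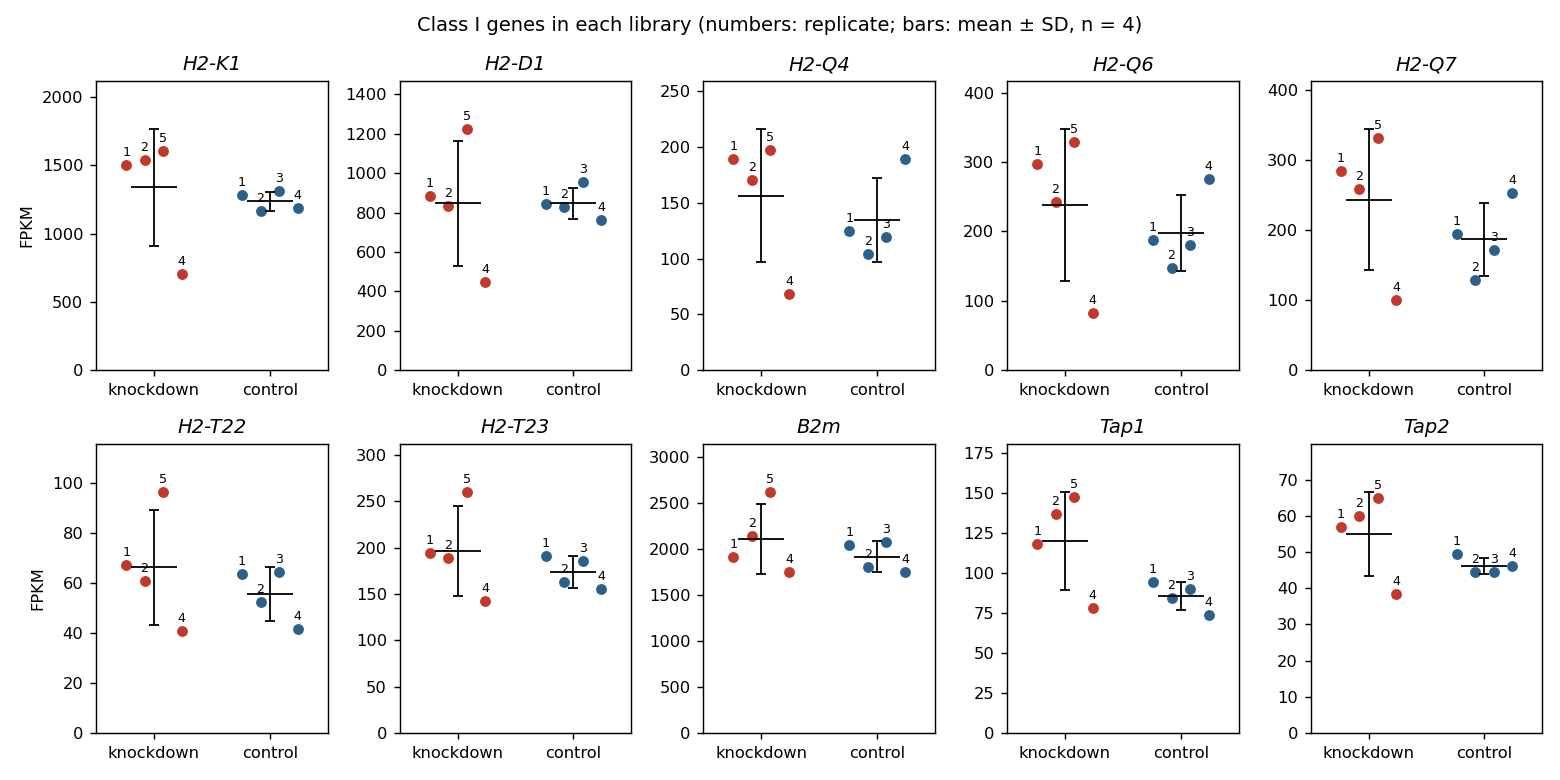
FPKM of each of the 10 genes in every library, with knockdown on the left and control on the right of each panel, digits giving replicate numbers, and bars the mean ± SD (n = 4 each). Knockdown replicate 5 is the highest point in all 10 panels and knockdown replicate 4 the lowest in 8.

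Of the classical heavy chains, H2-K1 (ENSMUSG00000061232, GRCm38 chr17:33996017-34000347, minus strand) encodes the K molecule of this strain. It had 1502, 1539, 1607 and 703 FPKM in knockdown replicates 1, 2, 5 and 4, against 1279, 1162, 1312.5 and 1186 FPKM in control replicates 1 to 4. Knockdown replicates 1, 2 and 5 thus lay above every control library and knockdown replicate 4 lay below them all. The mean was 1338 ± 426 FPKM in knockdown and 1235 ± 72.3 FPKM in control (SD, n = 4 each). The log2 difference was 0.04 (95% interval −0.64 to 0.73; limma, adjusted p = 0.948). Without knockdown replicate 4 it was 0.33 (adjusted p = 0.543).

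H2-D1 (ENSMUSG00000073411, chr17:35262730-35267499, plus strand) encodes the other classical chain, the D molecule. It had 882, 834, 1222 and 446 FPKM in knockdown replicates 1, 2, 5 and 4, against 844.5, 827, 954 and 760.3 FPKM in control replicates 1 to 4. The control libraries lay within the knockdown range, which knockdown replicates 5 and 4 set at its ends. Means were 846 ± 318 FPKM in knockdown and 846 ± 80.1 FPKM in control. The log2 difference was −0.08 (95% interval −0.77 to 0.61; limma, adjusted p = 0.900), and 0.19 without knockdown replicate 4.

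B2m (ENSMUSG00000060802, chr2:122147686-122153083, plus strand), the light chain common to all class I molecules, varied less. It had 1915, 2146, 2620.2 and 1746 FPKM in knockdown replicates 1, 2, 5 and 4, against 2048, 1799, 2073 and 1746 FPKM in control replicates 1 to 4. The lowest library of each group thus had the same level, and only knockdown replicates 5 and 2 lay above all controls. Means were 2107 ± 379.6 FPKM in knockdown and 1917 ± 168 FPKM in control, a log2 difference of 0.12 (95% interval −0.43 to 0.68; limma, adjusted p = 0.806).

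Relative to their level, the Q region genes had the widest range of the 10. H2-Q7 (ENSMUSG00000060550, chr17:35439155-35443773, plus strand) encodes a Qa-2 molecule, a chain anchored in the membrane by lipid. It had 284, 258, 332 and 99.9 FPKM in knockdown replicates 1, 2, 5 and 4, against 195, 128, 172 and 253 FPKM in control replicates 1 to 4. Knockdown replicates 1, 2 and 5 lay above every control library, while knockdown replicate 4 lay below all of them and control replicate 4 was well above the other controls. The mean was 244 ± 101 FPKM in knockdown and 187 ± 51.9 FPKM in control, with a log2 difference of 0.29 (95% interval −0.55 to 1.14; limma, adjusted p = 0.690). Without knockdown replicate 4 it was 0.67 (95% interval 0.12 to 1.23; adjusted p = 0.254).

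H2-Q6 (ENSMUSG00000073409, chr17:35424850-35430055, plus strand), a close relative of H2-Q7, had 297, 243, 328 and 82.1 FPKM in knockdown replicates 1, 2, 5 and 4, against 187, 148, 179.8 and 275 FPKM in control replicates 1 to 4. The replicate 4 libraries made the groups overlap: knockdown replicate 4 lay below every control, and control replicate 4 lay above knockdown replicate 2. Its means were 238 ± 109.6 FPKM in knockdown and 198 ± 54.6 FPKM in control, a log2 difference of 0.13 (95% interval −0.81 to 1.06; limma, adjusted p = 0.888). Without knockdown replicate 4 the difference was 0.58 (95% interval 0.03 to 1.12; adjusted p = 0.319).

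H2-Q4 (ENSMUSG00000035929, chr17:35379617-35385290, plus strand), which encodes the nonclassical chain Qb-1, had 189, 170.1, 197 and 68.4 FPKM in knockdown replicates 1, 2, 5 and 4, against 125, 104, 119.6 and 189.7 FPKM in control replicates 1 to 4. The same libraries stood out, knockdown replicate 4 being low and control replicate 4 high. Means were 156 ± 59.7 FPKM in knockdown and 135 ± 37.8 FPKM in control, a log2 difference of 0.14 (95% interval −0.64 to 0.92; limma, adjusted p = 0.849). In control replicate 4 these 3 genes were at 153% to 163% of the mean of control replicates 1 to 3, where the 7 remaining class I genes lay between 69.2% of that mean (H2-T22) and the mean itself (Tap2).

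Reads of the Q and T genes are hard to assign. Of the 50-base words of its transcripts, H2-Q6 shares 32.0% with some other gene, H2-Q7 26.4%, H2-Q4 21.8% and H2-T22 34.5%. H2-T10 alone holds 31.2% of the words of H2-T22 and so accounts for most of those it shares. For H2-T23 the share is 13.6%, for H2-D1 12.8% and for H2-K1 9.63%, and it is under 1% for Tap1 and Tap2 and 0 for B2m. Values of the Q genes and H2-T22 are therefore uncertain where the estimation could move fragments between paralogs.

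H2-T23 (ENSMUSG00000067212, chr17:36029773-36032855, minus strand) encodes Qa-1, which presents leader peptides of classical chains to NKG2 receptors of natural killer cells. It had 194, 188, 260.2 and 143 FPKM in knockdown replicates 1, 2, 5 and 4, against 191, 163, 186 and 155 FPKM in control replicates 1 to 4. Knockdown replicate 5 lay well above the control range and knockdown replicate 1 just above it, while knockdown replicate 4 was below it. The mean was 196 ± 48.4 FPKM in knockdown and 174 ± 17.4 FPKM in control, a log2 difference of 0.15 (95% interval −0.32 to 0.62; limma, adjusted p = 0.717).

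H2-T22 (ENSMUSG00000056116, chr17:36037128-36042747, minus strand), whose product is recognised by a subset of gamma-delta T cells, had 67.1, 60.9, 96.3 and 40.7 FPKM in knockdown replicates 1, 2, 5 and 4, against 63.4, 52.4, 64.3 and 41.5 FPKM in control replicates 1 to 4. The replicate 4 libraries of both groups were the lowest, at nearly the same level. Means were 66.3 ± 22.99 FPKM in knockdown and 55.4 ± 10.7 FPKM in control, with a log2 difference of 0.21 (95% interval −0.38 to 0.80; limma, adjusted p = 0.683).

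Tap1 had the highest difference of the 10. The gene (ENSMUSG00000037321, chr17:34187553-34197225, plus strand) encodes the first subunit of the transporter that moves peptides from the cytosol into the endoplasmic reticulum. It had 118, 137, 147 and 78.0 FPKM in knockdown replicates 1, 2, 5 and 4, against 94.3, 84.4, 89.8 and 73.7 FPKM in control replicates 1 to 4. Knockdown replicates 1, 2 and 5 lay above every control library and knockdown replicate 4 above control replicate 4 only. The mean was 120.2 ± 30.6 FPKM in knockdown and 85.6 ± 8.87 FPKM in control, a ratio of 1.40. The log2 difference was 0.45 ± 0.22 (SE; 95% interval −0.04 to 0.94; limma, adjusted p = 0.295). A two-sided exact permutation test gave p = 0.114.

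Tap2 (ENSMUSG00000024339, chr17:34203527-34216321, plus strand), the other subunit, had 56.9, 59.9, 64.98 and 38.4 FPKM in knockdown replicates 1, 2, 5 and 4, against 49.4, 44.4, 44.6 and 46.1 FPKM in control replicates 1 to 4. Again 3 knockdown libraries lay above all controls and knockdown replicate 4 below all of them. The mean was 55.05 ± 11.6 FPKM in knockdown and 46.1 ± 2.31 FPKM in control, a log2 difference of 0.22 (95% interval −0.20 to 0.65; limma, adjusted p = 0.524). Tap1 exceeded Tap2 in every library, by 2.03 to 2.29 times in knockdown and by 1.60 to 2.02 times in control. These ranges did not overlap, a ratio that was singled out after its values were seen and was not tested. Exons of Tap1 overlap those of Psmb9, exons of Tap2 those of Gm15821 and Gm20496, exons of H2-Q4 those of Gm11131 and exons of H2-T22 those of A930015D03Rik, and whether strand was used in counting is not given in the sources used here.

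**Figure D3:**
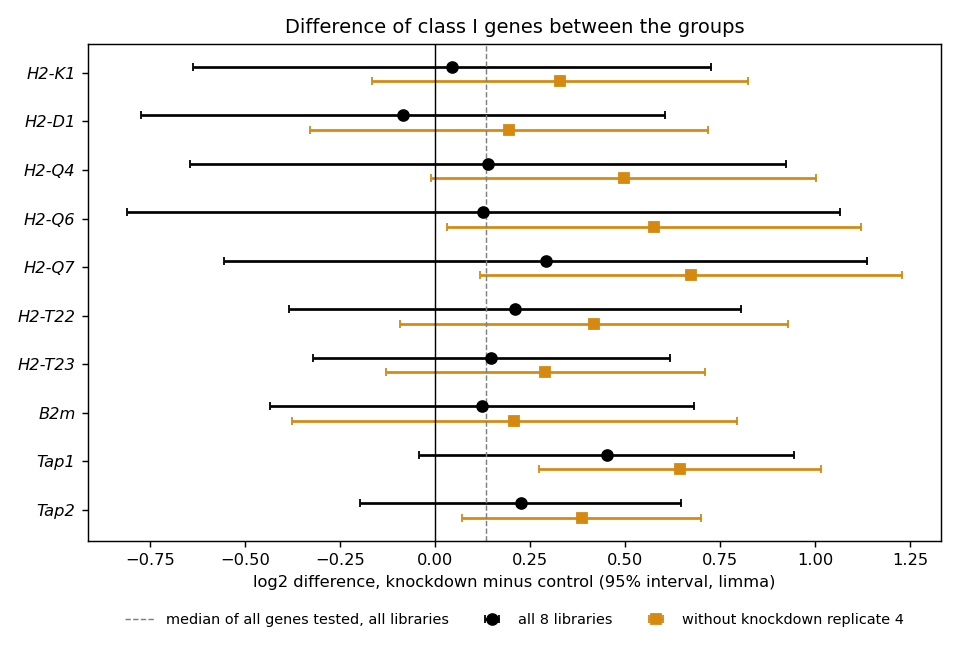
Log2 differences of the 10 genes, knockdown minus control on log2(FPKM + 1), with 95% intervals from limma, for all 8 libraries and without knockdown replicate 4. With all libraries every interval spans 0, and without knockdown replicate 4 those of H2-Q6, H2-Q7, Tap1 and Tap2 lie above 0, although none of the 10 passes the adjusted threshold. Knockdown replicate 4 was the lowest knockdown library for every gene shown, so leaving it out had to raise each difference.

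Knockdown replicate 4 decided most of these values. Without it, all 10 differences were above 0 with a median of 0.40, against 0.14 over all genes. By the adjusted p 0 of 10 were called, against 1.57% of all genes. At an unadjusted p under 0.05, 4 of 10 were higher (H2-Q6, H2-Q7, Tap1 and Tap2), against 12.3% of all genes. Tap1 then had a log2 difference of 0.64 (95% interval 0.27 to 1.01; limma, adjusted p = 0.110) and Tap2 0.39 (adjusted p = 0.249). In knockdown replicates 1, 2 and 5, H2-K1, H2-Q7, Tap1 and Tap2 lay above every control library, 4 of 10 against 12.8% of all genes. Without knockdown replicate 5, the highest library for every member, 6 of 10 differences were above 0 with a median of 0.0061, against 0.15 over all genes, so how many members lay above 0 differed with the library left out. Each library was left out in turn for every gene. Knockdown replicate 4 was the lowest knockdown library for every member, so leaving it out had to raise each of their differences. The counts without it are therefore no support for a difference between the groups.

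In knockdown replicate 4 the members were lower than in the other knockdown libraries by unequal amounts. Relative to the mean of knockdown replicates 1, 2 and 5, H2-Q6 was at 28.4%, H2-Q7 at 34.3%, H2-Q4 at 36.9%, H2-K1 at 45.4% and H2-D1 at 45.5%. H2-T22 was at 54.4%, Tap1 at 58.1%, Tap2 at 63.3%, H2-T23 at 66.6% and B2m at 78.4%. The 5 lowest are the members in whose promoters the shorter ISRE form was found, with no promoter at hand for Tap2. This order was noticed in the data and not tested. H2-T10, a heavy chain gene outside the members, had 28.4, 55.8, 28.6 and 12.1 FPKM in knockdown replicates 1, 2, 5 and 4. Summed B cell markers in knockdown replicate 4 were at 39.8% of the mean of the other knockdown libraries. Its erythroid markers, which include the globins, summed to 29316 FPKM, against a mean of 1397 FPKM in the others, with all 13 markers at or above 1 FPKM in every library. The erythroid sum was 883 to 29316 FPKM over knockdown and 3107 to 8354 FPKM over control. With the mean erythroid level as a covariate, Tap1 differed by 0.43 (limma, adjusted p = 0.133), and with the mean B cell level by 0.52 (adjusted p = 0.173). None of the 10 was called with either covariate, where 1295 and 338 of 12890 genes were.

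Knockdown replicate 5 was the highest of the 8 libraries for 10 of 10 members, as it was for 8.74% of all genes. Knockdown replicate 4 was the lowest for 8 of 10, as it was for 25.7% of all genes, and control replicate 4 was the lowest for B2m and Tap1. The members do not vary independently, so these counts describe libraries and not genes. T cell markers summed to 269 to 590.1 FPKM in knockdown and 133 to 501 FPKM in control. Natural killer markers summed to 105 to 179.9 FPKM in knockdown and 29.7 to 181 FPKM in control. The part of these cell types in the class I levels was not tested.

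Over all 8 libraries the order of levels began with B2m (2012 FPKM on average), H2-K1 (1286 FPKM) and H2-D1 (846 FPKM), and each exceeded the next in 8 of 8 libraries. H2-Q6 (218 FPKM) and H2-Q7 (215 FPKM) could not be separated, H2-Q6 being higher in 4 of 8, and H2-Q7 exceeded H2-T23 (185 FPKM) in only 5 of 8. H2-Q4 (145 FPKM), Tap1 (103 FPKM), H2-T22 (60.8 FPKM) and Tap2 (50.6 FPKM) followed, and of these only Tap1 exceeded the next in all 8. By mean level B2m ranked 41 among 54018 identifiers, H2-K1 91 and H2-D1 132, while Tap1 ranked 791 and Tap2 1931. The highest library exceeded the lowest 3.998-fold for H2-Q6 and 1.501-fold for B2m.

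The makeup of the heavy chain transcripts was described by adding the 7 genes. They summed to 3416, 3293, 4044 and 1582 FPKM in knockdown replicates 1, 2, 5 and 4, against 2885, 2584, 2987 and 2861 FPKM in control replicates 1 to 4. H2-K1 and H2-D1 together made up 69.8% to 72.6% of this sum in knockdown and 68.0% to 77.0% in control, so the classical chains dominated in every library. The 3 Q genes made up 22.6%, 20.4%, 21.2% and 15.8% in knockdown replicates 1, 2, 5 and 4, against 17.6%, 14.7%, 15.8% and 25.1% in control replicates 1 to 4. The Q shares of the groups overlapped, at 15.8% to 22.6% in knockdown and 14.7% to 25.1% in control, and were not tested. Knockdown replicate 4 had the lowest share of its group and control replicate 4 the highest of all libraries. The T genes made up 7.57% to 11.6% in knockdown and 6.88% to 8.83% in control. B2m per summed heavy chain was 0.561, 0.652, 0.648 and 1.10 in knockdown replicates 1, 2, 5 and 4, against 0.710, 0.696, 0.694 and 0.610 in control replicates 1 to 4. Knockdown replicate 4 was the single library in which B2m exceeded the heavy chains.

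**Figure D4:**
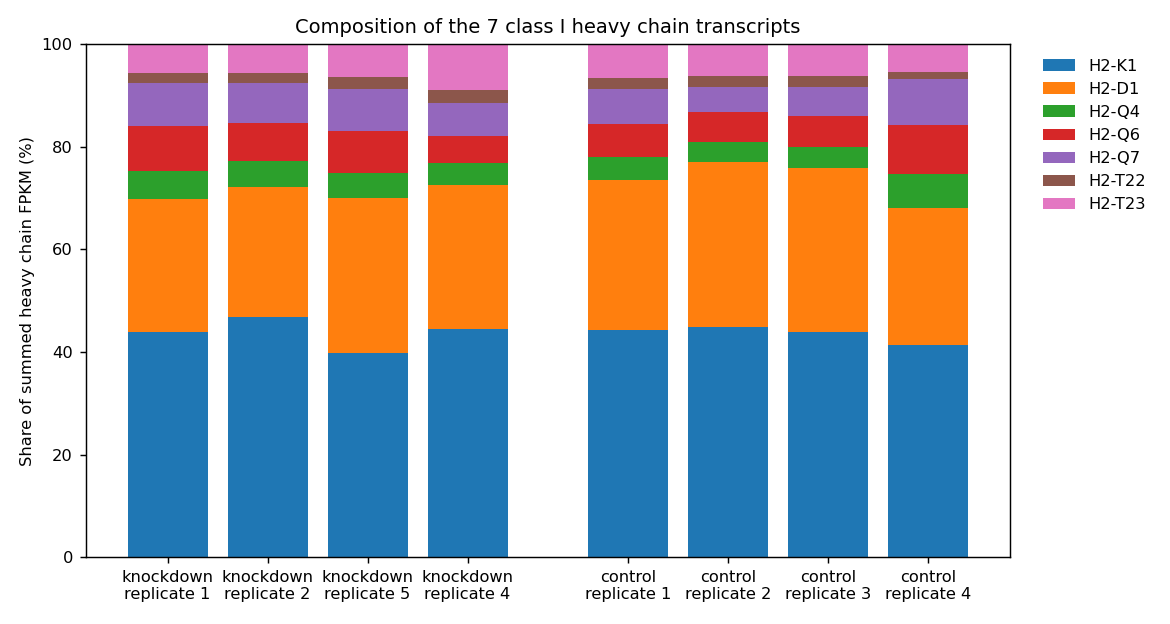
Share of the summed FPKM of the 7 heavy chain genes (percent, vertical axis) held by each gene in each library, with knockdown libraries left of control libraries. H2-K1 and H2-D1 together hold 68.0% to 77.0% of the sum in every library, and the 3 Q genes hold their largest share, 25.1%, in control replicate 4.

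Other genes of the pathway were taken from 7 lists, in which 86 of 92 symbols were matched and 71 passed the filter on low values. Of these 71, 0 passed the test in either direction, 12 were higher and 0 lower at an unadjusted p under 0.05, against 15.8% of all genes higher. For 9 of 71 all knockdown libraries lay above all control libraries, against 11.2% of all genes. In 52 of 71 the log2 difference was above 0, against 63.7% of all genes, and their median was 0.21, against 0.13. With array weights 5 of the 71 passed (Lilrb4a, Stat2, Ifnar2, Ezh2 and Klra2), all higher in knockdown, where 761 of 12890 genes passed.

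Of 5 further heavy chain genes tested, 2 were above 0 (median −0.03). H2-T10, the near copy of H2-T22, had 31.2 ± 18.1 FPKM in knockdown and 19.3 ± 2.25 FPKM in control (log2 difference 0.49; limma, adjusted p = 0.481). H2-Q5 had 72.4 ± 36.4 FPKM in knockdown and 83.8 ± 34.6 FPKM in control (−0.31, adjusted p = 0.716), and H2-T24 differed by 0.23 (adjusted p = 0.692). Of 5 class I-like genes 4 were above 0 (median 0.46). Cd1d1, which presents lipids to natural killer T cells, had 26.8 ± 10.3 FPKM in knockdown and 16.96 ± 1.68 FPKM in control (0.56, adjusted p = 0.281). Fcgrt, the heavy chain of the neonatal Fc receptor, differed by 0.46 (adjusted p = 0.278), and Ulbp1, a ligand of the activating receptor NKG2D, by −0.58 (adjusted p = 0.307).

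Of 11 genes of peptide loading and trimming 6 were above 0 (median 0.00). Tapbp, or tapasin, which bridges the transporter and the heavy chain, had 126 ± 18.9 FPKM in knockdown and 103 ± 11.5 FPKM in control (0.28; limma, adjusted p = 0.394). Pdia3, the disulfide isomerase of the loading complex, had 150 ± 11.3 FPKM in knockdown and 179 ± 20.03 FPKM in control (−0.25, adjusted p = 0.409), with intervals of both that span 0. Tpp2, a cytosolic peptidase, differed by 0.30 (adjusted p = 0.333). Of 7 immunoproteasome genes 6 were above 0 (median 0.16). Psmb10, a catalytic subunit, had 113 ± 16.4 FPKM in knockdown and 91.6 ± 19.2 FPKM in control (0.31, adjusted p = 0.403). Psmb9, the neighbour of Tap1, had 117, 128, 149.7 and 99.8 FPKM in knockdown replicates 1, 2, 5 and 4, against 94.8, 117, 121 and 73.8 FPKM in control replicates 1 to 4 (0.29, adjusted p = 0.465). As in Tap1, knockdown replicate 5 was its highest library and control replicate 4 its lowest. Psme2b, annotated as a copy of a proteasome activator subunit gene, differed by −0.36 (adjusted p = 0.418).

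Of 19 transcription regulators 13 were above 0 (median 0.21). Nlrc5, the class I transactivator, had 53.2, 52.4, 58.2 and 23.9 FPKM in knockdown replicates 1, 2, 5 and 4, against 39.6, 36.2, 40.2 and 46.6 FPKM in control replicates 1 to 4. Like the Q genes it was low in knockdown replicate 4 and highest among controls in control replicate 4, and its log2 difference was 0.13. It was singled out for its role, and a link to the Q genes was not tested. The members outside the Q region were not high in control replicate 4. H2-T24, a heavy chain gene outside the members and the Q region, was at 38.4 FPKM there. It had 19.6, 19.3 and 18.6 FPKM in control replicates 1 to 3. Irf2 and Rela of this list, singled out for the pattern of Nlrc5, were lowest in knockdown replicate 4 and highest in control replicate 4. Kdm1a, Tyk2, H2-Q5 and H2-Q10, outside this list and also singled out, had the same lowest and highest libraries. Knockdown replicate 4 was the lowest library for 25.7% of all genes. Ezh2, the Polycomb methyltransferase, had 69.0 ± 31.4 FPKM in knockdown and 28.4 ± 1.40 FPKM in control, without overlap (1.15; limma, adjusted p = 0.0732). Stat2 and Irf9, partners in the complex that binds ISREs, were also without overlap. Stat2 had 25.5 ± 5.94 FPKM in knockdown and 16.0 ± 2.35 FPKM in control (0.62, adjusted p = 0.151). Irf9 had 44.7 ± 6.75 FPKM in knockdown and 30.9 ± 4.96 FPKM in control (0.52, adjusted p = 0.174).

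Of 11 genes of interferons, their receptors and feedback 9 were above 0 (median 0.47). At an unadjusted p under 0.05 (limma) 5 of these 11 were higher, against 15.8% of all genes. The count was 4 of 13 for the class I receptors, 3 of 19 for the transcription regulators and 0 for each other list. The lists were chosen with earlier results of these data known, so these counts are no support for a difference. Ifnar2, a chain of the type I interferon receptor, had 31.7 ± 7.48 FPKM in knockdown and 20.003 ± 1.34 FPKM in control, without overlap (0.61; limma, adjusted p = 0.151). Usp18, which dampens that receptor, had 7.90 ± 2.95 FPKM in knockdown and 2.99 ± 1.39 FPKM in control (1.17, adjusted p = 0.124), and Socs3, a feedback inhibitor, differed by 0.67 (adjusted p = 0.165). Unlike the members, Ifnar2 and Usp18 were highest in knockdown replicate 4 (39.3 and 11.1 FPKM). In knockdown replicate 5 they were lowest of their group (22.2 and 4.19 FPKM), Usp18 there lying below control replicate 1 (4.24 FPKM). Socs3 was highest in knockdown replicate 5 (11.6 FPKM) and lowest of its group in knockdown replicate 4 (7.62 FPKM), as the members were. Of 13 receptors for class I and relatives of such receptors 12 were above 0 (median 0.47). Lilrb4a, an inhibitory receptor of myeloid cells, had 20.2 ± 4.57 FPKM in knockdown and 10.9 ± 2.21 FPKM in control, without overlap (0.82, adjusted p = 0.0956). Klra2 and Klra7, of the Ly49 family with its many close paralogs, were at 4.39 ± 1.09 and 15.4 ± 4.81 FPKM in knockdown, against 1.44 ± 0.771 and 7.51 ± 3.78 FPKM in control (adjusted p = 0.0624 and 0.167). Monocyte and macrophage markers, whose sums but not mean log2 levels lay apart between the groups, were higher beside these receptors. Natural killer marker sums were lowest in control replicates 4 and 2 (29.7 and 58.9 FPKM), as were Klra2 and Klra7. Lilrb4a was lowest in control replicates 4 and 3. The part of either cell type was not tested.

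**Figure D5:**
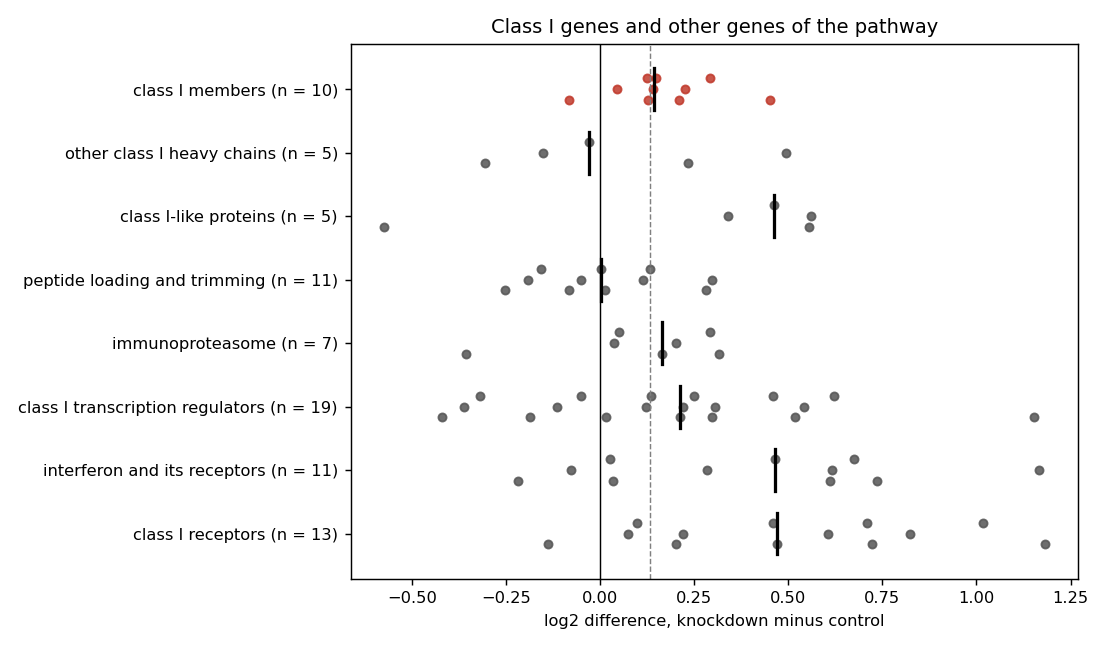
Log2 differences of the class I members and of the tested genes of the 7 pathway lists, knockdown minus control on log2(FPKM + 1), 1 point per gene, with short bars for list medians and a dashed line for the median of all genes tested, 0.13. Points of the interferon and receptor lists sit mostly above 0, with medians of 0.47, and no point of any list passes the adjusted threshold.

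The genes whose pattern over the 8 libraries was most like the mean of the members were found among 8736 protein-coding genes with a mean of at least 5 FPKM, by Pearson's r to the mean z-score. Dhx57, a helicase gene, came first (r = 0.990), followed by Gbp5, an interferon-inducible GTPase (0.967), Plekha3 (0.950), Rftn1 (0.950) and Crybg1 (0.946). Gbp5 had 10.05, 8.71, 16.5 and 3.71 FPKM in knockdown replicates 1, 2, 5 and 4, against 7.32, 4.63, 7.19 and 5.27 FPKM in control replicates 1 to 4, so it too was highest in knockdown replicate 5 and lowest in knockdown replicate 4. After subtraction of each group's mean the nearest genes were Fem1a (0.998), Dhx57 (0.990), Syk, a kinase of B cell receptor signalling (0.989), Lnx2 (0.983) and Rubcn (0.983). Syk had 196, 171, 291 and 78.5 FPKM in knockdown replicates 1, 2, 5 and 4, against 287, 225, 290.4 and 241 FPKM in control replicates 1 to 4, so it followed the members within each group but not between the groups. These correlations describe 8 libraries in which every gene shares the depth and cell makeup of its library. Knockdown replicate 4 and control replicate 4 stood farthest from the rest, their highest correlation with any other library over the 12890 genes tested being 0.928 and 0.929.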

How the data were processed

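Per the labels' protocols, a mirVana kit and a NovaSeq instrument were used. The authors deposited FPKM for 54018 identifiers in 8 libraries, made with CASAVA and Cufflinks, per the submitters' processing notes. Not given in the sources used here are the aligner, genome build, annotation and strand setting. GENCODE M21 (GRCm38) named 53951 identifiers and gave the gene coordinates. A 0 in a library for a gene with a median above 10 FPKM can be a failed estimate; 28 genes had one, no member among them. Fragments per library were estimated from low values of transcripts of at least 1500 bases, less 180 bases, of which 98.3% to 99.1% lay within 0.1 of a whole number.

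Genes reaching 1 FPKM in 4 or more libraries were tested on log2(FPKM + 1) with limma 3.58.1 (mean-variance trend, R 4.3.3) and Benjamini-Hochberg adjustment. This scale understates changes of low genes. The fit was checked on simulated data. The rest used Python 3.11.15 with matplotlib 3.10.9, numpy 2.4.6 and pandas 2.3.3. Named genes were the members, Kdm1a, the 3 lowest p of each pathway list and the 5 genes most like the members on each of the measures given, and any other is said to be singled out. Psmb9 is described as the neighbour of Tap1, and Gbp5 and Syk were picked from the most similar genes for their known roles. Members and lists were chosen with earlier results of these data known.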

Additional observations from a re-analysis of the deposited data

Results flagged for a closer look

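H2-K1 stood far from the rest of its group in knockdown replicate 4, at 703 FPKM, with the gap to the nearest knockdown library taking 0.918 of the group's range on the log2 scale. H2-Q4 did so in the same library, at 68.4 FPKM, with a gap of 0.859 of the range. Both exceed Dixon's 95% critical value for 4 libraries. In all 22 groups were examined, the members and Kdm1a in knockdown and in control, and chance gives such a value in about 5% of groups.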

How the results depend on the processing

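Of the 10 class I genes 0 passed the adjusted threshold under any of 23 alternatives, and H2-Q7, Tap1 and Tap2 kept their direction in all of them, Tap1 between 0.31 and 0.64. H2-K1 was −0.10 with median-of-ratios scaling, −0.039 with the replicate block, −0.0084 with the libraries with Xist above 10 FPKM, and −0.069 to 0.33 with 1 library left out. H2-D1 was 0.0084 with array weights, 0.14 without replicate 4 of both groups, 0.013 with the B cell covariate, and −0.29 to 0.19 with 1 left out. H2-Q4 was −0.0054 with median-of-ratios, −0.012 with quantile normalization, −0.053 with the block, and −0.0092 to 0.50 with 1 left out. H2-Q6 was −0.019 with median-of-ratios, −0.12 with the block, and −0.087 to 0.58 with 1 left out. B2m was −0.023 with median-of-ratios, H2-T23 −0.017 with quantile normalization, and H2-T22 −0.0019 with the Xist libraries. Kdm1a stayed between −0.61 and −0.26, its adjusted p between 0.141 and 0.962 (limma).

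All genes called, 224, became 24 with a pseudocount of 5, 2 with no filter, 71 with a mean of at least 5 FPKM, 131 with median-of-ratios, 122 with quantile normalization, 761 with array weights, 0 with the replicate block, 120 without replicate 4 of both groups, 1 with the Xist libraries, 1295 with the erythroid covariate and 338 with the B cell covariate. It was 8 to 333 with 1 library left out: 8 without control replicate 4, 13 without knockdown replicate 2, and 29, 46 and 90 without control replicates 3, 2 and 1. Pathway genes called, 0, became 5 with array weights (Lilrb4a, Stat2, Ifnar2, Ezh2 and Klra2), 4 with the erythroid covariate (all but Stat2), 1 with the B cell covariate (Ezh2) and 0 to 1 with 1 left out (Ezh2 without knockdown replicate 1, Lilrb4a without knockdown replicate 5). The cause was not tested.

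With each group's mean subtracted from every gene, same-numbered libraries of the groups correlated at 0.16, 0.05 and −0.12 for numbers 1, 2 and 4. The numbers were therefore not taken to pair the libraries. The Xist comparison has 1 control, assumed to vary like the knockdown libraries. Leaving out genes with possible failed estimates was chosen after the data were seen.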
